A study of Mus musculus with 88 samples.

Results

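The 32 genes described here are the genes of oligodendrocytes and their precursors. They were taken by symbol from the 53749 genes of the count tables, and each of the 32 matched 1 Ensembl identifier. They fall into 5 sub-lists by the known role of each gene. Members and lists were chosen with earlier results of these data known. The myelin structure genes are *Mbp*, *Mobp*, *Mal*, *Mag*, *Mog*, *Cnp*, *Cldn11*, *Opalin*, *Ermn* and *Tspan2*, 10 in all. The 7 genes of myelin lipid and oligodendrocyte metabolism are *Ugt8a*, *Fa2h*, *Aspa*, *Car2*, *Trf*, *Enpp2* and *Sirt2*. The 6 lineage transcription factors are *Myrf*, *Sox10*, *Olig1*, *Olig2*, *Nkx6-2* and *Nkx2-2*. The 6 precursor genes are *Cspg4*, *Pdgfra*, *Gpr17*, *Lhfpl3*, *Vcan* and *Ptprz1*, and the 3 genes of the stages between are *Bcas1*, *Cnksr3* and *Tmem163*. The first pair of sub-lists, 17 genes, is called mature below.

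Oligodendrocytes wrap axons in myelin, a stack of membrane that is rich in lipid and held together by a small set of very abundant proteins. They arise throughout life from precursor cells that carry PDGFRα and NG2, and the step from precursor to myelinating cell is driven by SOX10, OLIG1, OLIG2, NKX2-2, NKX6-2 and MYRF. Both the precursors and the mature cells carry the glucocorticoid receptor, which binds the stress hormone corticosterone in rodents.

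All mice were male wild-type C57BL/6J, 4 months old. In the fear learning experiment mice were killed 10 or 30 minutes after they were placed in the context for contextual fear conditioning (CFC), in which an unfamiliar chamber is paired with 2 foot shocks, or were left in the home cage (naive). NeuN- nuclei (non-neuronal) and NeuN+ nuclei (neuronal) were sorted from the hippocampus (HIP; 4 libraries per group) and the medial prefrontal cortex (mPFC; 3 per group). In the hormone experiment mice were given a corticosterone complex at 2 mg/kg or an equal volume of saline by injection, and 30 minutes later hippocampal nuclei were sorted into 4 populations, with 4 libraries of each per treatment: 3X- (without NeuN, GFAP and PU.1; labelled oligodendrocyte-enriched), GFAP+ (astrocyte), PU.1+ (microglia) and NeuN+. The 3X- gate is defined only by what the nuclei lack, so mature oligodendrocytes, precursors and vascular cells share it, and white matter was removed at dissection. Nuclear RNA was counted over whole gene bodies. In such bulk samples fewer cells of a type and less RNA per cell cannot be told apart.

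The total count per library was 5935395 to 12758257 in the hormone experiment, 10561897 to 18271372 in the HIP and 10577263 to 16392677 in the mPFC. Libraries 3 and 4 of the HIP NeuN- naive group held identical values and were counted as 1, so that group has n = 3. As a check of the treatment, *Fkbp5*, a standard glucocorticoid receptor target, had 158 to 272 CPM (counts per 1000000 counts of the library) in 3X- nuclei after corticosterone and 35.5 to 64.6 CPM in 3X- nuclei after saline. Markers of other cells were present in the saline 3X- libraries. The summed level of 12 astrocyte markers was 749 to 911 CPM there, against 14416 to 18057 CPM in GFAP+ nuclei, and that of 12 microglia markers was 43.2 to 62.7 CPM, against 8986 to 9738 CPM in PU.1+ nuclei. The 8 excitatory neuron markers summed to 366 to 419 CPM, against 1671 to 1759 CPM in NeuN+ nuclei, the 8 endothelial markers to 99.5 to 219 CPM and the 8 mural markers to 53.3 to 88.7 CPM. The 17 mature members summed to 12105 to 13256 CPM in those 3X- libraries. The study calls its RNA replicates independent, but the sources used here do not say that each is a separate animal, so p-values measure the spread between these libraries, which may be technical.

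The first question was where the genes are expressed. In saline-treated hippocampus, 31 of the 32 genes were higher in 3X- than in GFAP+ nuclei and *Ptprz1* was lower (edgeR's quasi-likelihood test, Benjamini-Hochberg adjusted p under 0.05 over all genes). Of all genes, 54.7% were called in that comparison, 26.9% higher and 27.8% lower. The median log2 difference of the members was 3.55. All 32 were higher in 3X- than in PU.1+ nuclei (median 5.77), where 63.4% of all genes were called, 31.5% higher and 31.9% lower, and all 32 were higher in 3X- than in NeuN+ nuclei (median 8.55), where 65.0% were called, 33.9% higher and 31.1% lower. In naive mice all 32 were higher in NeuN- than in NeuN+ nuclei of the HIP (median 6.93). Of all genes tested there, 73.2% were called in either direction and 37.4% were called higher. All 32 were also higher in NeuN- nuclei of the mPFC (median 7.75). There 72.3% of all genes were called and 37.4% of all genes were called higher. As the members were chosen as genes of this lineage, these counts describe the list and are not a test of it. Many members were near 0 in NeuN+ nuclei (*Aspa* had at most 0.241 CPM in a saline library), so the medians against NeuN+ nuclei rest on very low counts.

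The myelin structure genes were the most confined to the 3X- gate. *Mog*, which encodes a protein of the outermost myelin surface, had 326, 290, 278 and 282 CPM in the saline 3X- libraries. It had 27.5, 18.4, 15.4 and 17.2 CPM in GFAP+ nuclei and at most 6.46 CPM in a PU.1+ and 0.324 CPM in a NeuN+ library. Of the mean CPM summed over the 4 populations, 92.5% lay in 3X- nuclei, the highest share of any member, with *Opalin* (92.5%), *Fa2h* (92.1%) and *Cldn11* (92.1%) close behind. *Opalin* encodes a glycoprotein of the oligodendrocyte membrane, *Fa2h* the enzyme that hydroxylates myelin lipids and *Cldn11* the claudin of the tight junctions in myelin. Among the precursor genes, *Pdgfra* had a share of 88.4% in 3X- nuclei and *Cspg4*, the gene of the NG2 proteoglycan, had 83.0%.

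*Ptprz1*, a receptor-type phosphatase of the extracellular matrix that astrocytes also make, had the lowest share, 29.8%. It had 636, 753, 796 and 782 CPM in the saline 3X- libraries, against 1500, 1658, 1591 and 1555 CPM in the GFAP+ libraries. The groups did not overlap, and the log2 difference was -1.02 ± 0.09 (SE, adjusted p = 7.1e-10). *Cnksr3*, a scaffold protein known in the kidney for its part in aldosterone-driven sodium transport, had 49.9% in 3X- nuclei, 31.3% in GFAP+ and 18.5% in PU.1+ nuclei. *Sirt2*, a deacetylase found in myelin, had 50.5% in 3X- nuclei with the rest spread over the other populations, and *Trf*, the iron carrier transferrin, had 15.4% in PU.1+ nuclei.

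**Figure D1:**
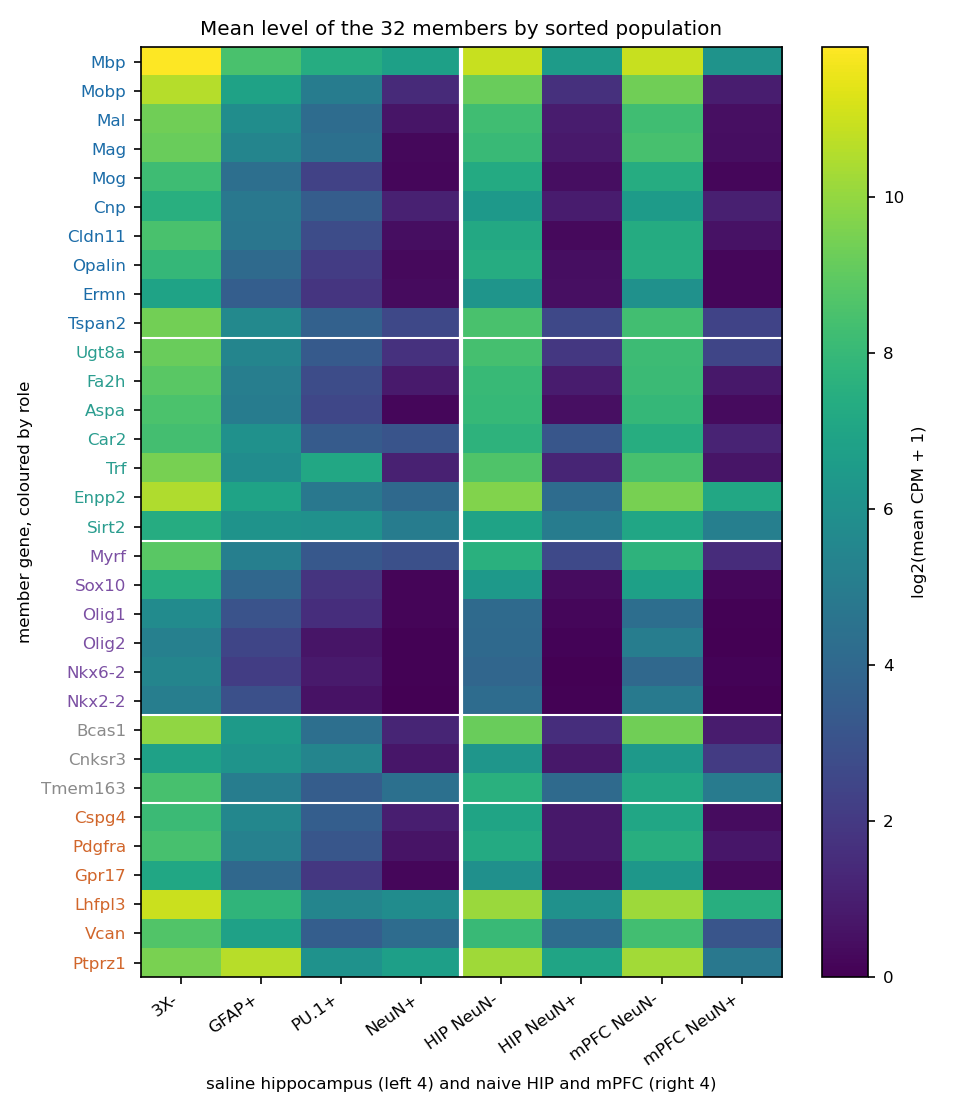
Heat map of the mean level of each of the 32 genes (rows, coloured by role; colour scale log2 of mean CPM plus 1) in the 4 saline-treated populations of the hippocampus (left) and in naive NeuN- and NeuN+ nuclei of the HIP and mPFC (right). Most genes are brightest in 3X- and NeuN- nuclei (92.5% of the *Mog* CPM over the saline populations lies in 3X- nuclei), while *Ptprz1* is highest in GFAP+ nuclei among the saline populations.

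Per length of gene body, the order of levels in saline 3X- nuclei was led by *Mobp*, whose product compacts the myelin sheath, at 48.6 ± 2.6 FPKM (SD, n = 4). *Mag*, the myelin-associated glycoprotein that faces the axon, had 37.3 ± 4.2 FPKM, and *Mbp*, myelin basic protein, had 35.1 ± 1.3 FPKM. *Mobp* stood above the next gene by more than their spread, and *Mag* and *Mbp* did not differ beyond it. The lowest were *Nkx2-2* (1.96 ± 0.18 FPKM), *Tmem163*, a zinc transporter (1.79 ± 0.06 FPKM), and *Cnksr3* (1.20 ± 0.07 FPKM). In the naive NeuN- nuclei *Mobp* ranked first in the HIP (18.4 FPKM) and *Mag* first in the mPFC (21.97 FPKM). Because the counts include introns, these are levels of nuclear RNA and not of the mature messages.

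The second question was how the genes respond to corticosterone in the cells that express them. In 3X- nuclei 17 of the 32 genes were called at 30 minutes, 7 higher and 10 lower, where 7.48% of all 14587 genes tested were called (5.0% higher, 2.47% lower). The members did not move as a block. Their median log2 fold change was 0.05, against 0.00 for all genes, and the calls ran in both directions within the myelin structure genes (2 higher, 3 lower of 10) and within the transcription factors (1 higher, 3 lower of 6). The lipid and metabolism genes had 0 higher and 4 lower of 7, and the precursor genes 3 higher and 0 lower of 6. The CPM values of 16 members did not overlap between corticosterone and saline, 5 of them above and 11 below, against a background of 13.3% of genes without overlap. The count was 14 to 18 when any 1 library was left out and 11 when all 4 populations shared one fit. That fit lost the calls of *Tspan2* (0.34, adjusted p = 0.16), *Enpp2* (-0.32, 0.18), *Mog* (-0.27, 0.15), *Vcan* (0.30, 0.058), *Pdgfra* (0.23, 0.36) and *Cspg4* (0.22, 0.36). With no filter on low genes the split was 4 higher and 13 lower, and with library totals as the only scaling it was 5 higher and 11 lower.

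*Mobp* had the highest fold change. It had 2654, 2684, 2541 and 2607 CPM in the corticosterone libraries, against 1550, 1595, 1603 and 1425 CPM in the saline libraries. The lowest corticosterone library lay far above the highest saline library, and the log2 fold change was 0.80 ± 0.07 (adjusted p = 3.9e-11). *Tspan2*, a tetraspanin of myelinating cells, had 847, 876, 815 and 836 CPM after corticosterone and 689, 687, 670 and 626 CPM after saline (0.37 ± 0.07, adjusted p = 0.00013), again without overlap. *Mbp* itself did not pass the test (3865 to 4406 CPM after corticosterone and 3749 to 4032 CPM after saline, log2 fold change 0.12 ± 0.07). *Mal*, a proteolipid of compact myelin (0.09), *Cldn11* (0.02), *Cnp*, the myelin phosphodiesterase (-0.07), and *Mag* (-0.22) were not called either. Reads of *Cnp* share 8912 bases of its gene body with *Dnajc7* on the other strand, so its value is uncertain. *Mobp* shares 2447 bases with *Gm38642* on its own strand, which had a mean of 789 counts in 3X- nuclei, against 17308 for *Mobp*.

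Among the myelin structure genes 3 fell. *Opalin* had 164, 161, 197 and 170 CPM after corticosterone, against 275, 229, 237 and 227 CPM after saline (-0.44 ± 0.08, adjusted p = 0.00011). *Ermn*, which encodes the actin-binding protein ermin, had 98.1, 79.6, 86.5 and 103 CPM after corticosterone, against 108, 117, 115 and 134 CPM after saline (-0.33 ± 0.08, adjusted p = 0.0068). *Mog* had 238, 253, 231 and 244 CPM after corticosterone, against 326, 290, 278 and 282 CPM after saline (-0.25 ± 0.07, adjusted p = 0.021). None of these 3 genes had overlapping groups. Their calls were not equally firm, since that of *Mog* was lost without any 1 of 5 libraries (saline 1 or 2, corticosterone 1, 3 or 4; adjusted p 0.050 to 0.090) and that of *Ermn* without saline replicate 4 (adjusted p = 0.071).

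The genes of myelin lipid and metabolism fell furthest as a group, with a median of -0.29 and 6 of 7 values below 0. *Car2*, carbonic anhydrase of the oligodendrocyte cytoplasm, had 166, 179, 191 and 190 CPM after corticosterone, against 357, 321, 302 and 320 CPM after saline (-0.80 ± 0.07, adjusted p = 1.5e-10). *Ugt8a*, the enzyme that makes galactocerebroside, the main glycolipid of myelin, had 346, 322, 400 and 396 CPM after corticosterone, against 683, 563, 538 and 547 CPM after saline (-0.63 ± 0.08, adjusted p = 3.6e-07). Every corticosterone library was below every saline library for both genes. *Aspa*, which splits N-acetylaspartate to give acetate for lipid synthesis, had 259, 200, 297 and 257 CPM after corticosterone, against 355, 378, 363 and 389 CPM after saline (-0.51 ± 0.09, adjusted p = 4.1e-05). *Enpp2*, or autotaxin, which makes lysophosphatidic acid, had 1111, 1134, 1162 and 1144 CPM after corticosterone, against 1559, 1413, 1370 and 1374 CPM after saline (-0.29 ± 0.07, adjusted p = 0.0031). The groups of both were again separate. *Fa2h* (-0.17), *Trf* (-0.19) and *Sirt2* (0.09) were not called.

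The transcription factors split. *Nkx2-2*, a homeodomain factor of the step out of the precursor state, had 18.2, 16.99, 18.7 and 17.96 CPM after corticosterone, against 36.1, 29.1, 32.2 and 33.8 CPM after saline (-0.83 ± 0.10, adjusted p = 5.0e-08). *Sox10*, which is needed through the whole lineage, had 88.5, 125, 91.2 and 102 CPM after corticosterone, against 176, 178, 154 and 184 CPM after saline (-0.73 ± 0.08, adjusted p = 4.2e-08). *Nkx6-2*, a homeodomain factor of myelinating cells, had 29.5, 34.8, 28.3 and 28.8 CPM after corticosterone, against 42.5, 45.4, 37.5 and 43.9 CPM after saline (-0.44 ± 0.09, adjusted p = 0.00073). For these 3 genes the groups were separate. *Olig2*, a basic helix-loop-helix factor of the lineage, went the other way, with 38.1, 59.4, 44.4 and 43.7 CPM after corticosterone, against 35.8, 34.5, 37.4 and 34.1 CPM after saline (0.43 ± 0.10, adjusted p = 0.0028). *Olig1* (0.34, adjusted p = 0.061) and *Myrf*, the activator of the myelin genes (0.19), were not called. Corticosterone replicate 2 stood apart for these genes, with a summed level of the 6 factors of 983 CPM, against 717 to 723 CPM in the other corticosterone and 754 to 842 CPM in the saline libraries. It was the highest corticosterone library for *Olig1* (91.2 CPM), *Olig2*, *Sox10* and *Myrf* (655 CPM). Without it 18 members were called, 5 higher and 13 lower. The gene body of *Nkx2-2* shares 10161 bases with the antisense transcript *Nkx2-2os*, which had more counts in 3X- nuclei (mean 1164 against 215), and *Nkx6-2* overlaps *Inpp5a* by 277 bases. Whether the authors counted by strand is not given in the sources used here, so those 2 values cannot be told apart from their overlapping partners.

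**Figure D2:**
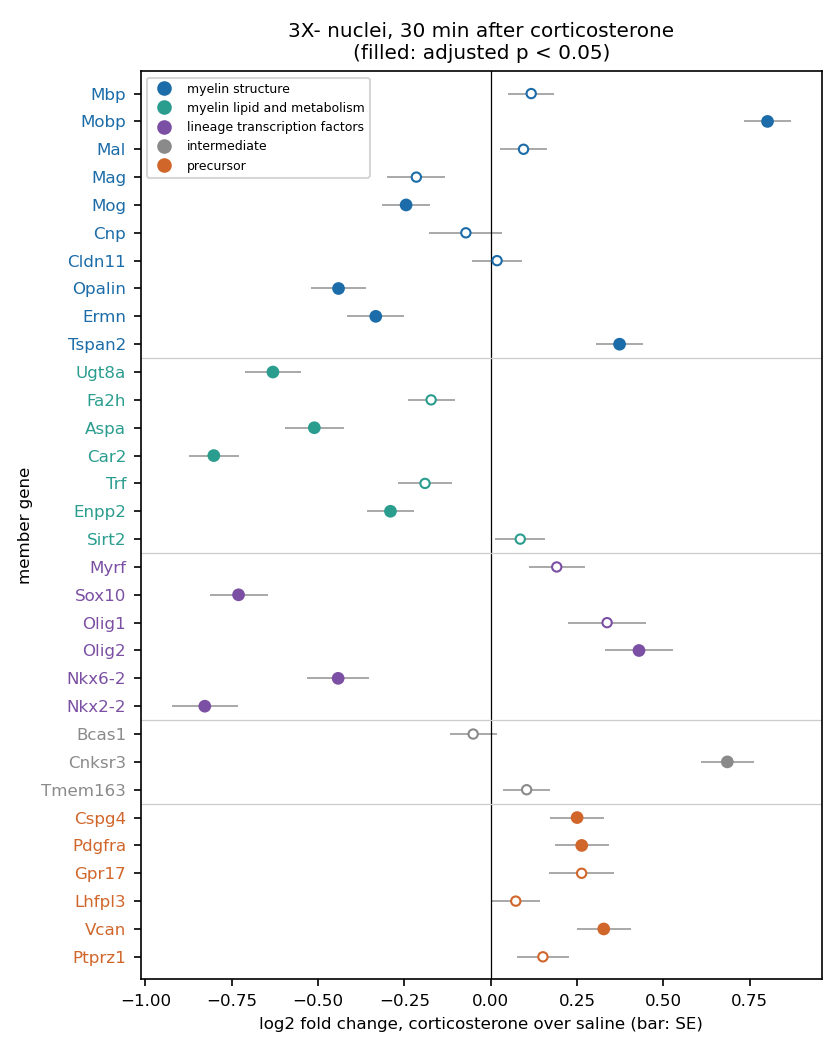
Log2 fold change of each of the 32 genes, corticosterone over saline, in 3X- nuclei (n = 4 libraries each; bars are SE; filled points passed an adjusted p of 0.05). *Mobp* (0.80) and *Cnksr3* (0.68) lie at the right end, *Car2* (-0.80) and *Nkx2-2* (-0.83) at the left, and all 6 precursor genes lie above 0.

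The precursor genes had smaller changes. All 6 values were above 0 (5 of 6 with no filter on low genes), with a median of 0.26, while the 17 mature genes had a median of -0.19 with 6 values above 0. *Vcan*, the matrix proteoglycan versican, had 500, 516, 482 and 528 CPM after corticosterone, against 352, 403, 481 and 419 CPM after saline (0.33 ± 0.08, adjusted p = 0.0042), with a narrow gap between the groups. *Pdgfra*, the growth factor receptor that marks precursors, had 359, 480, 360 and 420 CPM after corticosterone, against 321, 335, 359 and 368 CPM after saline (0.26 ± 0.08, adjusted p = 0.029). *Cspg4* had 288, 384, 291 and 330 CPM after corticosterone, against 253, 287, 279 and 296 CPM after saline (0.25 ± 0.08, adjusted p = 0.043). The groups of *Pdgfra* and *Cspg4* overlapped. Their calls were lost without corticosterone replicate 2 (0.18, adjusted p = 0.088 for *Pdgfra* and 0.17, adjusted p = 0.12 for *Cspg4*). The call of *Pdgfra* was also lost without corticosterone replicate 4 or saline replicate 1 or 2, and that of *Cspg4* without corticosterone replicate 4 or any 1 saline library. Both calls were lost as well when libraries were scaled by their totals alone (adjusted p 0.075 and 0.10) and, with that of *Vcan* (0.055), when no gene was filtered out. Of the rest, *Gpr17*, a receptor of committed precursors (0.26), *Ptprz1* (0.15) and *Lhfpl3* (0.07) were not called. The whole gene body of *Gpr17*, 6640 bases, overlaps *Lims2* on the other strand (mean 416 counts in 3X- nuclei, against 1229 for *Gpr17*), so its value is uncertain.

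In the group between, *Cnksr3* was higher, with 190, 190, 167 and 155 CPM after corticosterone, against 120, 106, 109 and 113 CPM after saline (0.68 ± 0.08, adjusted p = 1.9e-08). The lowest corticosterone library was above the highest saline library. *Bcas1*, which marks newly myelinating cells (-0.05), and *Tmem163* (0.10) were not called.

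Summed over the gene groups, the myelin structure genes were at 9625, 10427, 9474 and 9458 CPM after corticosterone, against 8897, 8654, 8287 and 8187 CPM after saline, a sum in which *Mbp* and *Mobp* weigh most. The myelin lipid and metabolism genes summed to 2991, 3171, 3171 and 3157 CPM after corticosterone, against 4359, 4047, 3819 and 3992 CPM after saline. These sums thus lay on opposite sides of saline within the same libraries. The precursor sum was 3963, 4240, 4144 and 4508 CPM after corticosterone, against 3499, 3848, 4163 and 4032 CPM after saline, with overlap. In it *Lhfpl3* weighs most.

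Wider lists of the lineage, chosen for this work from known markers, leaned the same way in the same libraries. They were chosen with earlier results of these data known and are not independent of the members. Of 46 other genes of mature oligodendrocytes, 4 rose and 13 fell (median -0.19), and those that fell included *Gjb1*, a connexin of oligodendrocyte gap junctions, and *Gal3st1*, which makes sulfatide from galactocerebroside. Of 24 other genes of precursors and committed precursors, 6 rose and 1 fell (median 0.15). The 1 that fell was *Enpp6*, a phosphodiesterase of newly forming oligodendrocytes. Of 12 glucocorticoid target genes 10 rose and 0 fell (median 1.17). Some markers of other cells moved too. Among the 7 microglia markers tested *Csf1r* alone was called (0.70), all 7 were above 0 (median 0.68), and the summed level of all 12 was 53.0 to 87.7 CPM after corticosterone and 43.2 to 62.7 CPM after saline. Among 10 astrocyte markers *Fgfr3* was called (0.34) and among 4 mural markers *Rgs5* (0.49), both higher. Among 7 excitatory neuron markers *Prox1* was lower (-0.63), and the summed level of all 8 was 317 to 348 CPM after corticosterone and 366 to 419 CPM after saline. Their part in the changes above was not tested.

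**Figure D3:**
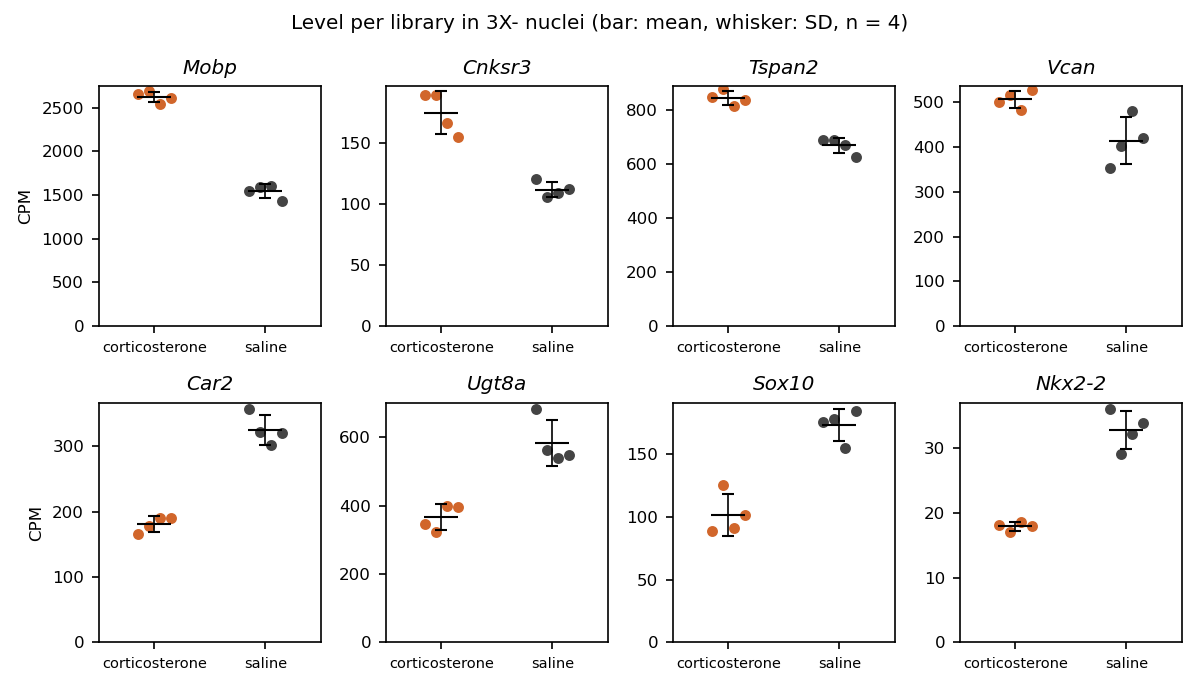
CPM of *Mobp*, *Cnksr3*, *Tspan2*, *Vcan*, *Car2*, *Ugt8a*, *Sox10* and *Nkx2-2* in each of the 8 libraries of 3X- nuclei (corticosterone left, saline right; dots are libraries, bars the means and whiskers the SD, n = 4). The 4 corticosterone libraries of *Mobp* sit between 2541 and 2684 CPM, all above the saline libraries, and those of *Car2* between 166 and 191 CPM, all below.

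Outside 3X- nuclei few members were called. In GFAP+ nuclei 31 members were tested and 1 was called, against 2.93% of all genes: *Cnksr3* had 108, 92.7, 86.6 and 80.3 CPM after corticosterone, against 74.1, 73.1, 69.2 and 64.7 CPM after saline (0.43 ± 0.09, adjusted p = 0.019). The groups did not overlap, as for 9.72% of all genes, but the call was lost without corticosterone replicate 2 or saline replicate 3 or 4 (adjusted p 0.063 to 0.076). *Car2* was lower in every corticosterone library (46.8 to 54.4 CPM, against 57.8 to 70.9 CPM after saline) and did not pass the test (-0.32, adjusted p = 0.063). *Mobp* had a value of 0.78 (adjusted p = 0.24) and *Sox10* one of -0.69 (adjusted p = 0.36), with overlapping groups. Corticosterone replicate 1 stood apart (*Mobp* 351 CPM, against 131 to 152 CPM in the other 3), and without it 4 members were called. Saline replicate 1 was raised as well for many members, as with *Mbp* (506 CPM, against 307 to 335 CPM in the other saline libraries), but not for *Ptprz1*. Leaving out either library alone unbalances the groups, so the 4 calls cannot be told apart from this imbalance. The mature median was -0.38 without corticosterone replicate 1 and -0.01 without saline replicate 1. In PU.1+ nuclei 1 of 25 tested members was called, against 7.84% of all genes. *Mobp* had 59.4, 40.4, 50.5 and 41.9 CPM after corticosterone, against 24.2, 24.1, 40.5 and 33.95 CPM after saline (0.68 ± 0.16, adjusted p = 0.011), with narrowly overlapping groups. The call was at the threshold without corticosterone replicate 1 (adjusted p = 0.050). In NeuN+ nuclei 1 of 5 tested members was called, against 2.06% of all genes. *Ptprz1* had 114, 119, 118 and 137 CPM after corticosterone, against 99.5, 105, 109 and 107 CPM after saline (0.23 ± 0.05, adjusted p = 0.0024), without overlap, as for 6.22% of all genes, and was lost without corticosterone replicate 4 (adjusted p = 0.066).

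Whether the response differed between populations was tested directly. The effect on *Car2* in 3X- nuclei minus that in NeuN+ nuclei was -1.09 ± 0.17 (adjusted p = 3.0e-05, the only member called, against 1.95% of genes). In NeuN+ nuclei themselves its log2 fold change was 0.25 and not called. Besides *Car2*, only *Mbp*, *Sirt2*, *Myrf* and *Ptprz1* passed the filter in NeuN+ nuclei alone. For the other members a difference to NeuN+ nuclei could hardly be called (*Sox10* had at most 0.483 CPM in a NeuN+ library). The difference for *Car2* was -0.59 to PU.1+ nuclei (adjusted p = 0.035, background 3.96%), where its own value was -0.22, and -0.50 to GFAP+ nuclei (adjusted p = 0.018, background 1.45%). The last 2 calls were fragile. The one against PU.1+ nuclei was lost without any 1 of 7 libraries (adjusted p 0.059 to 0.12; PU.1+ saline 1 or 2, PU.1+ corticosterone 1 or 2, 3X- saline 1, 3X- corticosterone 1 or 2). The one against GFAP+ nuclei was lost without any 1 of 3 (0.057 to 0.068; GFAP+ saline 3 or 4, 3X- saline 1). For *Cnksr3* the effect in 3X- minus that in PU.1+ nuclei was 0.62 (adjusted p = 0.0022), where its value in PU.1+ nuclei was 0.05. For *Mobp* no difference was called between 3X- and GFAP+ nuclei (-0.00 ± 0.24) or PU.1+ nuclei (0.11 ± 0.27), and the standard errors are wide. Of the *Mobp* CPM over the saline populations, 6.9% lay in GFAP+ and 1.8% in PU.1+ nuclei, near the shares of *Mog* (6.2% and 1.3%). Whether oligodendrocyte RNA in those gates has a part in the *Mobp* values there was not tested.

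The sequences around the annotated transcript starts of these genes were read. RefSeq promoter windows, from 250 bases before to 50 after the start (GRCm38.p6), were at hand for 22 of the 32 genes, 25 windows in all. The single glucocorticoid receptor site AGAACA, searched on both strands, was found in 1 of the 22 genes, against 21.3% of all genes with a window, and the full palindromic site, made of a pair of them, in none. That gene was *Tspan2*, 1 of whose windows (chr3:102734965-102735264, plus strand) is printed with that site, in its reverse form, in capitals. This window lies inside the *Tspan2* gene body, which begins at chr3:102734529, so the site is not in front of the gene.
Tspan2: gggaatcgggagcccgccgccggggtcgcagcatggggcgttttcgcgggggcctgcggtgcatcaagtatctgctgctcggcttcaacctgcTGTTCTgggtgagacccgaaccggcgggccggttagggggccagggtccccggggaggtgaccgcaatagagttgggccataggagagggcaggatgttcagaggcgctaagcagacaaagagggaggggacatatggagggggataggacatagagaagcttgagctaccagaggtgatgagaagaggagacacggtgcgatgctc
The E-box CATCTG, a form that OLIG2 binds, was found on either strand in 5 of 22 genes, against 19.2% of genes. These were *Tspan2*, *Pdgfra*, *Nkx2-2*, *Aspa* and *Opalin*. *Tspan2* and *Pdgfra* rose after corticosterone and the last 3 fell, so genes with this E-box moved in both directions. The windows of the last 3 are printed with the E-box in capitals, *Nkx2-2* at chr2:147186353-147186652, *Aspa* at chr11:73324588-73324887 and *Opalin* at chr19:41077064-41077363, all on the minus strand. The letters begin at -220, -129 and -93 from the transcript start of the window. The *Nkx2-2* and *Aspa* windows lie inside the gene bodies, which begin at chr2:147194243 and chr11:73329596 on the minus strand. Those E-boxes are thus not in front of the gene.
Nkx2-2: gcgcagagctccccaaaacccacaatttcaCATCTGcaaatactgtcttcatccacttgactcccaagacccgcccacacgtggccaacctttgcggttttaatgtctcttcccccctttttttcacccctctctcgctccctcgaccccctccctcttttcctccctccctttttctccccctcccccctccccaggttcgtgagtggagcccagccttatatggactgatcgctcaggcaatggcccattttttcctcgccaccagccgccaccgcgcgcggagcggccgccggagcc
Aspa: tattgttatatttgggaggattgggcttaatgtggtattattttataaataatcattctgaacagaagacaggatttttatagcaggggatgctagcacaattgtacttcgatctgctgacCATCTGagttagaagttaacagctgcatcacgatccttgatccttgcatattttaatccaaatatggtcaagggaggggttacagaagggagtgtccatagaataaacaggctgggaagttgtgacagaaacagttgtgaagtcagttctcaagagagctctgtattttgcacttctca
Opalin: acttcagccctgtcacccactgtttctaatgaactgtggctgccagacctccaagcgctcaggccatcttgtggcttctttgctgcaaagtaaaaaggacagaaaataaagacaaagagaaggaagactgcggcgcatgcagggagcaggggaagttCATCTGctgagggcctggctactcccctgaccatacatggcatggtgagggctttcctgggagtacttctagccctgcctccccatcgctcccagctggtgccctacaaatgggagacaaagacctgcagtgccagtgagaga
The window of *Mobp* (chr9:120149492-120149791, plus strand) stood out by its letters. It holds CTTTGT, the reverse of ACAAAG, the core that SOX proteins bind, 6 times (capitals). It was the only 1 of 32851 windows with as many, where 18.7% have at least 1. That motif was chosen after the sequence was seen.
Mobp: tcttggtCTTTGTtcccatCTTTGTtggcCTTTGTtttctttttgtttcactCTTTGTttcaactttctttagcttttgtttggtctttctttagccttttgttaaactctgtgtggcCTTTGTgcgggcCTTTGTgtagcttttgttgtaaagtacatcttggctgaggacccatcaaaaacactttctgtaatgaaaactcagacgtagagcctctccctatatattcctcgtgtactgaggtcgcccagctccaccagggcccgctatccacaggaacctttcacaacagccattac
The other SOX core searched, ACAAT, was in 6 of 22 genes, against 34.4% of genes, and the general E-box CANNTG, which covers CATCTG, in 13 of 22, against 75.0%. The cAMP response element TGACGTCA and the heat shock element were in 0 of 22 (2.03% and 0.662% of genes). A match is a stretch of letters and not a site shown to be bound.

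The third question was how the genes change after fear learning. The 10 and 30 minute groups of a region share the same naive libraries. In HIP NeuN- nuclei at 10 minutes 0 of 32 members were called by edgeR, where 0.345% of all genes were. At an unadjusted p under 0.05 there were 5, and DESeq2 called 2, *Mobp* and *Nkx6-2*. At 30 minutes *Mobp* alone was called, against 2.38% of all genes. It had 596, 580 and 582 CPM in naive mice, 898, 808, 710 and 645 CPM at 10 minutes and 822, 922, 1006 and 851 CPM at 30 minutes. Every library of conditioned mice lay above every naive library, and the log2 fold change was 0.62 ± 0.09 at 30 minutes (adjusted p = 0.0029) and 0.34 ± 0.09 at 10 minutes (adjusted p = 0.11). *Opalin* had 178, 159 and 155 CPM in naive mice, 113, 174, 126 and 148 CPM at 10 minutes and 110, 103, 135 and 131 CPM at 30 minutes. The 30 minute libraries lay below the naive ones without a call (-0.46 ± 0.12, adjusted p = 0.055), and DESeq2 called it. In all, 3 members were above naive without overlap at 10 minutes (*Mobp*, *Myrf* and *Nkx6-2*), and 6 were above and 1 below at 30 minutes, where 16.3% of all genes did not overlap at either time.

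In mPFC NeuN- nuclei 5 members were called at each time. At 10 minutes *Mobp*, *Mal*, *Trf* and *Ugt8a* were higher and *Cspg4* was lower, against a background of 1.71% of all genes (0.74% higher, 0.968% lower). At 30 minutes *Mobp*, *Mal*, *Cldn11* and *Ugt8a* were higher and *Opalin* was lower, against 5.84% (2.68% higher, 3.17% lower). *Mobp* had 646, 660 and 650 CPM in naive mice, 1071, 815 and 827 CPM at 10 minutes and 1020, 1001 and 1180 CPM at 30 minutes. Its log2 fold change was 0.48 ± 0.09 at 10 minutes (adjusted p = 0.023) and 0.74 ± 0.09 at 30 minutes (adjusted p = 0.00036), and no conditioned library overlapped the naive ones. *Mal* had 310, 309 and 313 CPM in naive mice, 439, 372 and 380 CPM at 10 minutes and 406, 361 and 453 CPM at 30 minutes (0.36 ± 0.08, adjusted p = 0.044, and 0.42 ± 0.08, adjusted p = 0.0079). *Ugt8a* had 284, 278 and 295 CPM in naive mice, 340, 348 and 377 CPM at 10 minutes and 361, 306 and 334 CPM at 30 minutes (0.32 ± 0.07, adjusted p = 0.033, and 0.25 ± 0.07, adjusted p = 0.046). Neither gene overlapped with its naive libraries.

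*Trf* had 355, 331 and 345 CPM in naive mice, 406, 427 and 456 CPM at 10 minutes and 393, 333 and 376 CPM at 30 minutes, called at 10 minutes alone (0.33 ± 0.07, adjusted p = 0.033). *Cldn11* had 163, 151 and 169 CPM in naive mice, 202, 175 and 186 CPM at 10 minutes and 197, 175 and 202 CPM at 30 minutes, called at 30 minutes alone (0.28 ± 0.08, adjusted p = 0.048). The difference between the times was not tested for either. *Opalin* had 173, 158 and 164 CPM in naive mice, 149, 161 and 167 CPM at 10 minutes and 124, 107 and 141 CPM at 30 minutes (-0.38 ± 0.09, adjusted p = 0.018), with every 30 minute library below the naive ones. *Cspg4* had 141, 141 and 117 CPM in naive mice, 100, 104 and 99.2 CPM at 10 minutes and 108, 123 and 98.6 CPM at 30 minutes (-0.39 ± 0.08, adjusted p = 0.032 at 10 minutes). The gap to the naive libraries was clear at 10 minutes and closed at 30. In all, 14 members lay above and 5 below naive without overlap at 10 minutes (background 21.8%), and 5 above and 4 below at 30 minutes (24.8%). Those below at 10 minutes were *Olig2* and 4 precursor genes, *Cspg4*, *Pdgfra*, *Lhfpl3* and *Ptprz1*, the last of which astrocytes also make.

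These mPFC calls rest on 3 libraries per group, and many were lost when 1 was left out. Without naive replicate 1 or 2, 0 of the 5 calls at 10 minutes were left, and without the other libraries 1 to 6 members were called. At 30 minutes 2 to 6 were called. The call of *Mobp* at 30 minutes was kept without any 1 library, as was that of *Mal*. That of *Opalin* was lost without naive 1 or 3 or without 30 minute 1 or 2 (adjusted p 0.052 to 0.10). That of *Cldn11* was lost without any 1 of 7 libraries (any naive, 10 minute 2 or 3, 30 minute 1 or 3; 0.051 to 0.20), and that of *Ugt8a* without any 1 of 6 (any naive, 10 minute 2, 30 minute 1 or 3; 0.064 to 0.19). At 10 minutes *Mobp* was lost without any 1 naive library (0.073 to 0.12), *Trf* and *Ugt8a* without any naive or 10 minute 2 or 3 (0.062 to 0.16), *Cspg4* without naive 1 or 2 or any 10 minute library (0.066 to 0.17), and *Mal* without any naive, any 10 minute or 30 minute 1 (0.054 to 0.17). Each log2 fold change kept its sign throughout.

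After fear learning the medians of precursor and mature genes had opposite signs, most clearly in the mPFC at 10 minutes. In mPFC NeuN- nuclei the median of the 17 mature genes was 0.23 at 10 and 0.12 at 30 minutes, with 15 of 17 values above 0 at each time, and that of the 6 precursor genes was -0.25 and -0.13, with 0 of 6 above 0. With library totals as the only scaling, or without naive replicate 2, 10 of 17 mature values were above 0 at 30 minutes. In HIP the mature medians were 0.08 and 0.04, with 12 and 11 of 17 values above 0, and the precursor medians -0.10 and -0.10, with 0 of 6 above 0. The HIP pattern at 30 minutes did not hold without single libraries. Without 30 minute replicate 1 the precursor median was 0.00 with 3 of 6 values above 0, and without 30 minute replicate 3 the mature median was -0.00 with 8 of 17 above 0. The medians of all genes were within 0.01 of 0. The summed level of the precursor genes in the mPFC was 3212, 3150 and 2891 CPM in naive mice, 2783, 2741 and 2595 CPM at 10 minutes and 2987, 2741 and 2710 CPM at 30 minutes. In this sum *Ptprz1* (1187 to 1274 CPM in naive mice) and *Lhfpl3* (1038 to 1213 CPM) weigh most. In the saline hippocampus 63.3% of the *Ptprz1* CPM lay in GFAP+ nuclei, so in NeuN- nuclei its value, here and among the 6 precursor genes, is also one of astrocytes. Among 24 other precursor genes 4 values at 10 minutes and 2 at 30 minutes were above 0 in the mPFC, none of them called. The 46 other mature genes had 5 calls at 10 minutes, all higher, and 7 at 30 minutes, of which *Pllp*, a proteolipid of myelin, was the only one lower.

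**Figure D4:**
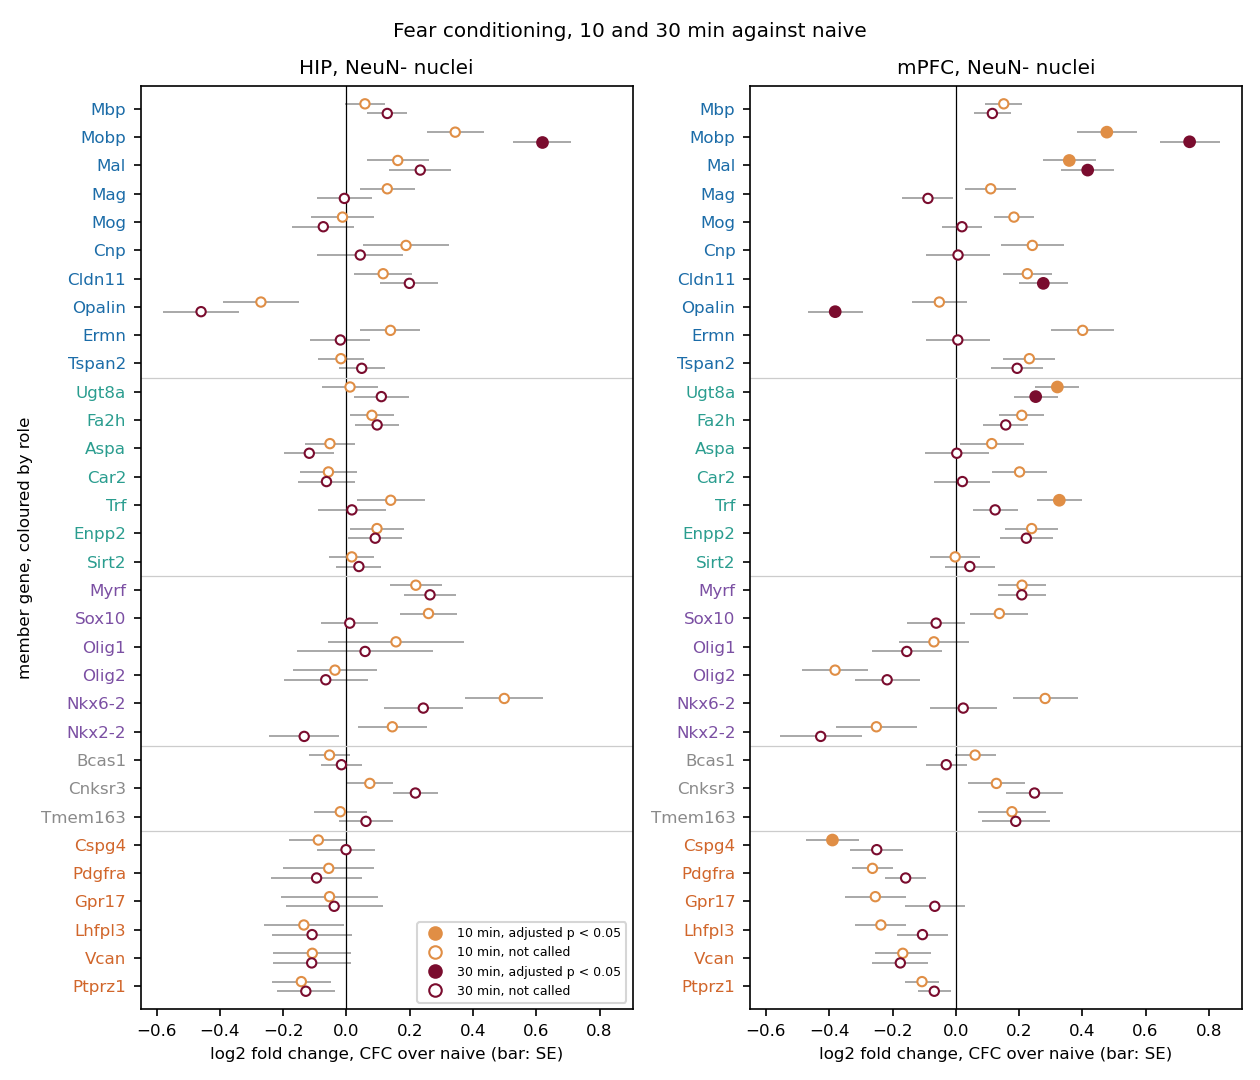
Log2 fold change of each of the 32 genes in NeuN- nuclei, 10 and 30 minutes after CFC over naive, in the HIP (left; n = 4 conditioned, 3 naive) and mPFC (right; n = 3 each); bars are SE and filled points passed an adjusted p of 0.05. *Mobp* is the farthest right at 30 minutes in both regions (0.62 and 0.74) and the 6 precursor genes lie at or below 0.

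Other cells of the NeuN- fraction moved at the same time in the mPFC. Among 12 microglia markers *Trem2*, *P2ry12* and *Siglech* fell at both times, and the summed level of the 12 was 1681 to 1729 CPM in naive mice, 1283 to 1493 CPM at 10 minutes and 1285 to 1525 CPM at 30 minutes. The summed level of astrocyte markers was 7761 to 8280, 7786 to 8106 and 7780 to 8619 CPM at the same times. The part of this shift in the member values was not tested. Among 12 astrocyte markers *Gjb6* was called at 30 minutes, higher in both regions. In the HIP 0 of 12 microglia markers were called at either time. The kit that made the libraries differed between regions, so region and kit cannot be told apart.

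In NeuN+ nuclei most members were near 0 and only 5 passed the filter in each region. In the HIP 0 of 5 were called at 10 minutes (1 at an unadjusted p under 0.05, 0 by DESeq2; background 4.86%) or at 30 minutes (1 at an unadjusted p under 0.05, 0 by DESeq2; background 8.56%). *Mbp* was the one that came close, with 89.9, 103, 89.6 and 88.0 CPM in naive mice, 126, 104, 115 and 104 CPM at 10 minutes and 124, 99.8, 110 and 94.4 CPM at 30 minutes (0.24, adjusted p = 0.060, and 0.20, adjusted p = 0.096).

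In mPFC NeuN+ nuclei *Mbp* rose at both times. It had 56.5, 72.9 and 76.6 CPM in naive mice, 147, 107 and 123 CPM at 10 minutes and 176, 163 and 109 CPM at 30 minutes. No conditioned library overlapped the naive ones, as for 29.6% of all genes at 10 minutes and 38.6% at 30 minutes, and the log2 fold changes were 0.87 ± 0.13 (adjusted p = 6.9e-05) and 1.15 ± 0.13 (adjusted p = 7.3e-07), against backgrounds of 14.5% and 24.7% of genes called. *Mobp*, which exceeds *Mbp* per length in 3X- nuclei, was far lower here and did not pass the filter. It had 0.775 to 1.13 CPM in the naive, 1.57 to 1.97 CPM in the 10 minute and 1.51 to 2.99 CPM in the 30 minute libraries. It thus also rose without overlap, at a low level. *Opalin* had at most 0.619 CPM in any of them. Whether oligodendrocyte RNA in this fraction has a part in the rise of *Mbp* was not tested. In NeuN- nuclei of the mPFC *Mbp* did not pass the test at either time (0.15 and 0.12), and the 30 minute effect in NeuN- minus that in NeuN+ nuclei was -1.04 ± 0.19 (adjusted p = 0.0012; background 4.18%). As background, the *Mbp* gene also gives golli transcripts, which start upstream of the myelin transcripts and are made in neurons. Counts over the whole gene body do not separate them.

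*Enpp2* went the other way in the same nuclei, with 136, 125 and 154 CPM in naive mice, 112, 113 and 109 CPM at 10 minutes and 86.8, 102 and 99.7 CPM at 30 minutes. It fell at both times without overlap (-0.32 ± 0.07, adjusted p = 0.0015, and -0.51 ± 0.07, adjusted p = 4.7e-06), and its 30 minute effect in NeuN- minus NeuN+ nuclei was 0.72 ± 0.12 (adjusted p = 0.00067). *Tmem163* had 36.7, 28.7 and 23.6 CPM in naive mice and 47.9, 36.8 and 39.1 CPM at 30 minutes (0.50 ± 0.12, adjusted p = 0.0032), a narrow separation, and DESeq2 did not call it (adjusted p = 0.066). It shares 1791 bases with *Mgat5* on the other strand, so its value is uncertain. *Sirt2* and *Lhfpl3*, the other pair tested, were not called. In the HIP 0 of 32 members differed in effect between NeuN- and NeuN+ nuclei (2 at an unadjusted p under 0.05, 0 by DESeq2, background 0.293%). Only 5 members passed the filter in HIP NeuN+ nuclei alone. The others entered this test through their NeuN- level, so a difference could hardly be called for them and the count does not show equal effects.

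**Figure D5:**
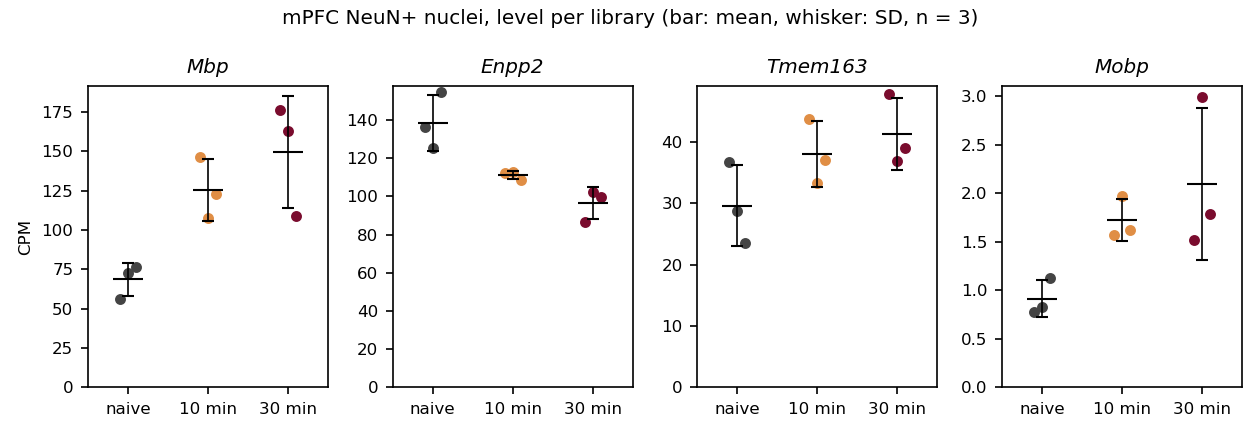
CPM of *Mbp*, *Enpp2*, *Tmem163* and *Mobp* (own axis each) in mPFC NeuN+ nuclei of naive, 10 minute and 30 minute libraries (dots are libraries, bars the means and whiskers the SD, n = 3). *Mbp* lies at 56.5 to 76.6 CPM in naive libraries and at 107 to 176 CPM after CFC. *Mobp* lies far lower, at 0.775 to 1.13 CPM in naive libraries and 1.51 to 2.99 CPM after CFC, also without overlap.

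The last question was whether DNA breaks were mapped to these genes. γH2AX, a histone mark that spreads around double-strand breaks, was profiled in the HIP and mPFC from pools of 3 mice, naive and 30 minutes after CFC, and the deposited list joins the naive and CFC peaks of a region. Of the 32 members, 1 had a peak in the lists used here, *Mbp* in the HIP, among 282 peaks there, and 0 of 32 had one among 260 in the mPFC. These lists may not hold every peak called, and peaks outside them were not analysed here. The peak lay at chr18:82546059-82588515 (GRCm38), 42457 bases wide. It covered the 3′ end, 35.8% of the *Mbp* gene body (chr18:82475146-82585637, plus strand). Of the annotated *Mbp* transcripts, 12 start within the peak and 4 start upstream of it. The peak therefore covers a part of the gene that the shorter transcripts share with some of those that start upstream, and it cannot be assigned to either. As the list gives no height and no group, no change with CFC can be read from it.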

How the data were processed

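Nuclear RNA-seq was analysed in 73 of 74 libraries. One HIP NeuN- naive library was identical to another and was counted once. The deposited values are raw counts per gene. They came from Trimmomatic-trimmed reads that the authors had mapped with HISAT2 (GRCm38, mm10). Picard took out duplicates, and featureCounts then assigned reads to entire gene bodies, introns included. Removing duplicates without molecular identifiers can lower the counts of short, abundant genes. The other deposited files are γH2AX peak positions, which the authors called with MACS2 after Bowtie2 alignment, annotated to genes and merged over replicates, with no score. The 53749 gene identifiers were matched to GENCODE vM21 (53682 matched).

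CPM is counts per 1000000 of the library total, and FPKM divides that by gene-body length. Each comparison was fitted with edgeR 4.0.16 (R 4.3.3, limma 3.58.1), TMM scaling and the quasi-likelihood test, on genes with a mean gene-body FPKM above 0.2 in at least 1 group. P-values were adjusted by Benjamini-Hochberg over all genes tested, and the threshold was 0.05. There were 22 comparisons. Errors of log2 fold changes are SE. The alternatives were DESeq2 1.42.0, RLE scaling, library totals only, no filter, the replicate number as a block, one fit over all groups of a table, and each library left out. The code was tested on simulated data. Promoter motifs were searched with Python 3.11.15.

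The members and lists were chosen with earlier results of these data known. All 32 members are accounted for. Values in every library are given for members called after corticosterone or CFC in 3X- or NeuN- nuclei and for those of highest and lowest share in 3X- nuclei. *Mbp*, *Enpp2*, *Tmem163*, *Mobp* and *Ptprz1* in other nuclei were also given. Replicate numbers paired samples by the rule of a correlation above 0.1 in every pair in 1 comparison, 3X- against GFAP+ nuclei in saline (0.134 to 0.236), where the block changed no call. Single values of some marker genes are not reported here.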

Additional observations from a re-analysis of the deposited data

Results flagged for a closer look

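In 56 groups of 4 libraries of member values and sums, 4 held 1 library far from the others, where chance gives about 1 in 20. *Ugt8a* had 683 CPM in 3X- saline replicate 1, against 538 to 563 CPM in the other 3. The summed CPM of the lipid and metabolism genes was 2990 in 3X- corticosterone replicate 1, against 3160 to 3170 in the others. The summed CPM of the transcription factors was 983 in 3X- corticosterone replicate 2, against 717 to 723, and 422 in HIP NeuN- 30 minute replicate 2, against 365 to 372.

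Effects that differed between populations by a test of the difference itself were those of *Car2* under corticosterone, 3X- minus GFAP+ (-0.50), minus PU.1+ (-0.59) and minus NeuN+ (-1.09), and of *Cnksr3*, 3X- minus PU.1+ (0.62). In the mPFC 30 minutes after CFC, NeuN- minus NeuN+, they were those of *Mbp* (-1.04) and *Enpp2* (0.72).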

How the results depend on the processing

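No called gene value and no count of calls turned round under the alternatives run, but some medians of gene groups did. In HIP NeuN- nuclei at 30 minutes the precursor median was 0.00 with 3 of 6 values above 0 without 30 minute replicate 1, and the mature median was -0.00 with 8 of 17 above 0 without 30 minute replicate 3. In GFAP+ nuclei after corticosterone the precursor median was -0.17 without corticosterone replicate 1, and above 0 under every other alternative. It was 0.26 without saline replicate 1, the other GFAP+ library with raised levels of many members. Members called in HIP NeuN- nuclei at 10 minutes (0) became 2 with DESeq2, 4 with no filter and 2 with the replicate block, and at 30 minutes (1) 2, 4 and 4, and 2 in one fit of all groups. In HIP NeuN+ nuclei the counts of 0 became 1 with library totals, 2 with no filter and 1 with the block at 10 minutes, and 2 with no filter, 1 with the block and 1 with all groups at 30 minutes. In mPFC NeuN- nuclei 5 became 11 with no filter at 10 minutes, and 3 with totals, 10 with no filter and 8 with the block at 30 minutes. In mPFC NeuN+ nuclei 2 became 5 with no filter at 10 minutes, and 3 became 6 with no filter and 5 with all groups at 30 minutes. After corticosterone, 17 became 11 with all groups in 3X- nuclei. In GFAP+ nuclei 1 became 2 with DESeq2, 2 with totals, 10 with no filter, 9 with the block and 4 with all groups. In PU.1+ nuclei 1 became 4 with no filter, and in NeuN+ nuclei 2 with no filter and 0 with all groups. For differences of effect, 3X- minus PU.1+ (2) became 1 with RLE scaling, 3X- minus NeuN+ (1) became 2 with no filter, HIP NeuN- minus NeuN+ (0) became 1 with no filter, and mPFC (2) became 5 with DESeq2 and 4 with no filter. Requiring a peak to cover 50% of the gene body left 0 of 1 γH2AX members. The causes were not tested.

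With 1 library left out, the counts ranged from 0 to 0 and 1 to 3 in HIP NeuN- nuclei (10 and 30 minutes), 0 to 1 at both times in HIP NeuN+, 0 to 6 and 2 to 6 in mPFC NeuN-, and 2 to 3 at both times in mPFC NeuN+. After corticosterone they ranged from 14 to 18 in 3X-, 0 to 4 in GFAP+, 0 to 2 in PU.1+ and 0 to 1 in NeuN+ nuclei. For differences of effect they were 0 to 1 (GFAP+), 1 to 2 (PU.1+), 1 to 1 (NeuN+), 0 to 0 (HIP) and 2 to 4 (mPFC). All population contrasts stayed at 32. Outside the pair named in the processing, no comparison met the rule. Yet mPFC NeuN- and NeuN+ libraries correlated best with their own number in 3 of 3 pairs of each group (lowest 0.027, highest 0.139). Saline 3X- and NeuN+ libraries did so in 4 of 4 (0.018 to 0.087). The paper describes gating the 4 populations in sequence, so libraries of the same number may share animals. The main tests, differences of effect included, did not use this pairing. In 3X- nuclei the block gave 21 calls, 9 higher and 12 lower, and 2 of 4 libraries correlated best with their own number. The block removed no single-gene call.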
